A study of Mus musculus with 2 samples.

Results

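Blood vessel endothelial cells of the mouse lung were studied at low and high metastatic burden. They were selected on their own RNA, from droplet-based single-cell libraries (10x Genomics) of whole dissociated lungs. Among cells with 1000 to 7000 detected genes and at most 10% mitochondrial UMIs (unique molecular identifiers, each counting 1 captured RNA molecule), a member had at least 10 UMIs per 10000 of Cldn5, Cdh5, Ramp2, Clec14a and Tmem100 summed. It also had under 30 of Ccl21a (lymphatic vessels), under 8 of Col1a2, Col3a1, Tcf21 and Inmt (fibroblasts), under 10 of C1qa, C1qb and C1qc (macrophages) and under 4 of Cdkn2a, Twist1 and Hmga2 (the injected carcinoma cells). This rule found 563 members among 5506 kept cells, 472 at low burden and 91 at high burden. The 5789 deposited cells came from 2 libraries, each made from the perfused lungs of 1 female FVB/NJ mouse, with the same batch label. Both mice had received Met-1 mammary carcinoma cells through the tail vein at 10 weeks of age, so that neither library is from a lung without tumor cells. The low-burden lung was collected 1 week and the high-burden lung 3 weeks after injection. With 1 mouse per group there is no replicate, no test between groups and no p-value. Burden, week, mouse and depth cannot be told apart, and all intervals given are 95% exact intervals that cover counting error only.

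Endothelial cells line blood vessels. In the alveolar wall they form a dense capillary net, in which general capillary cells (marked by Gpihbp1, Plvap and Aplnr) lie beside Car4-positive capillary cells, which appose the alveolar epithelium for gas exchange. Arterial and venous cells line the larger vessels. New vessels grow when vascular endothelial growth factor selects tip cells, which lead the sprout, carry Esm1, Apln and Angpt2, and lay down a new basement membrane, while flowing blood maintains Klf2 and Klf4 in settled vessels.

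Members were shallower in the low-burden library, with a median of 3852 UMIs and 1785 genes per cell, against 8194 UMIs and 2864 genes at high burden. The summed UMIs of the members were 2361010 at low and 1052870 at high burden. Of the cell barcodes, 11 occurred in both libraries, and 4 of these belonged to low-burden members and 0 to high-burden members. Just inside the cut, the members with the lowest endothelial sums had 10.0 UMIs per 10000 at low burden and 10.8 at high burden. Just outside it, the nearest cells that met every other clause had 9.97 and 9.17.

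The label was checked with 20 endothelial genes that the rule did not use, such as Pecam1 and Kdr. Their summed level had a median of 162 UMIs per 10000 in low-burden members and 129 in high-burden members. In T and B cells of the same libraries, picked by at least 10 UMIs per 10000 of Cd3d, Cd3e, Cd3g, Cd79a, Cd79b and Ms4a1 and by failing the other gates, the endothelial one included (133 and 46 cells), the medians were 8.70 and 3.71. At least 40 UMIs per 10000 were present in 423 of 472 low-burden and in 87 of 91 high-burden members. Of the 49 low-burden members below that level, 45 had under 20 UMIs per 10000 of the rule's genes, a range that held 50 members. The name was thus borne out by other genes in most members, and not in most low-burden members close to the cut. Reaching the level does not show that a member held no other cell. Of 144 low-burden members in clusters led by genes of other cells (described below), 49 were under the level and the rest reached it. Gpihbp1, which anchors lipoprotein lipase to capillaries and was not used by the rule, was found in 75.0% of low-burden and 91.2% of high-burden members, at 1033 and 804 CPM (UMIs per 1000000 of the summed UMIs).

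**Figure D1:**
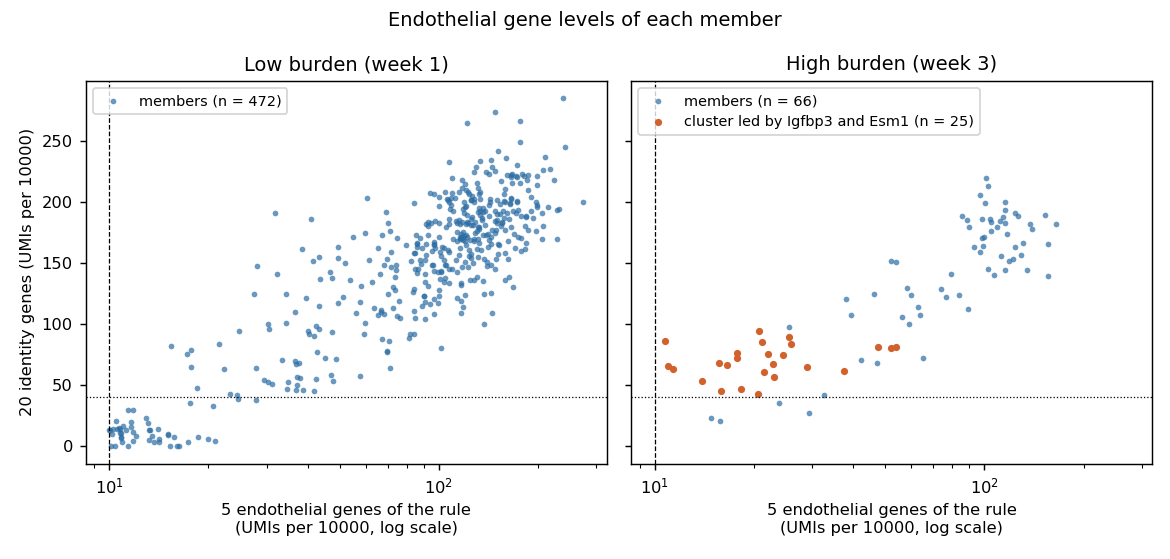
Each point is a member, with the summed UMIs per 10000 of the 5 endothelial genes of the rule on a log x axis and of the 20 identity genes on the y axis. The dashed line is the cut of 10 and the dotted line the level of 40; 49 low-burden and 4 high-burden members lie under the dotted line, and the 25 orange cells, which form 1 cluster at high burden, lie at low rule sums but above it.

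Members made up 19.1% of kept cells at low burden (472 of 2473, interval 17.6 to 20.7) and 3.00% at high burden (91 of 3033, 2.42 to 3.67). Many high-burden cells were carcinoma cells, and outside the metastatic gate the shares were 19.3% (of 2440 cells) and 5.79% (of 1573 cells, 4.68 to 7.06). The share depended on the clause against fibroblasts. Inmt alone kept out 123 cells at low and 74 at high burden that had the endothelial genes (Inmt encodes a methyltransferase of lung fibroblasts), and 114 and 71 of them reached 40 UMIs per 10000 of the identity genes. In these 114 and 71 cells Inmt stood at 2658 and 3278 CPM. Members had 296 and 144 CPM, and T and B cells had 288 and 156 CPM. This gap follows from the selection, because the excluded cells were picked for high Inmt. Members were held under the rule's cut on fibroblast genes, and T and B cells had failed the fibroblast gate. The Inmt levels are thus no separate check on the excluded cells. Whether such droplets held an endothelial cell alone or with a fibroblast was not tested. With them counted as members, the shares outside the metastatic gate were 24.4% and 10.5%, so the fold between the libraries was smaller although the order was kept. Fewer endothelial cells in the lung and a poorer recovery of them cannot be told apart from these shares.

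Markers of vessel type were compared after each member was thinned to 2000 UMIs, which left out 0 members. A member was assigned to the list with the most UMIs, if it had at least 2. General capillary genes led in 280 of 472 low-burden members (59.3%, 54.7 to 63.8) and in 54 of 91 high-burden members (59.3%, 48.5 to 69.5). Car4-capillary genes led in 25.2% (21.4 to 29.4) and 22.0% (14.0 to 31.9). Venous genes led in 6.57% (4.51 to 9.19) and 8.79% (3.87 to 16.6), and arterial genes in 1.48% (0.598 to 3.03) and 2.20% (0.267 to 7.71). No list led in 7.42% and 7.69%. All 4 pairs of intervals overlapped, which does not show that the proportions were equal. Such a class is a range of counts and not a cell type, and the lead was 1 UMI in 4.66% and 12.1% of members. The 472 include 144 members in clusters led by genes of other cells, described next. Among members at the identity level, general capillary genes led in 61.9% and 58.6%, and Car4-capillary genes in 25.8% and 23.0%.

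Each library was also clustered on its own, and the genes that lead a cluster are a description with no test. At low burden, cluster 1 (172 cells) was led by Iigp1, Gpihbp1, Aplnr, Sema3c and Plvap and was called general capillary-like. Clusters 2 and 3 (63 and 61 cells) carried 3 and 8 of 8 Car4-capillary markers, led by Ccdc184, Pvrl3 and Apln and by Car4, Chst1 and Ednrb. Cluster 3 was called Car4 capillary-like. Cluster 2 was called capillary-like, because its summed Car4-capillary level (5119 CPM) was near its general capillary level (5022 CPM). Cluster 7 (32 cells) carried 8 of 10 venous markers, with Prss23, Slc6a2 and Vwf, and was called venous-like. The remaining 4 low-burden clusters stayed unnamed, because genes of other cells led them. These were T-cell genes such as Cd3g (54 cells), alveolar macrophage genes such as Ear2 and Chil3 (39 cells), the alveolar epithelial genes Ager and Sftpc (36 cells, which also held 4 of 10 arterial markers) and the mural genes Acta2 and Tagln (15 cells). They held 144 of 472 low-burden members and all 49 members under the identity level.

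At high burden, 33 cells (cluster 2) were led by Car4, Emp2, Cyp4b1 and Sema3c and carried 5 of 8 Car4-capillary and 4 of 8 general capillary markers, so they were called capillary-like. Another 33 cells (cluster 1) were led by Vwf, haemoglobin genes, Cytl1, Sftpc and Vcam1, with 4 of 10 venous markers but 2 epithelial and 2 blood markers among the 10 leading genes, against 2 venous ones, and stayed unnamed. The last 25 cells (cluster 3) were led by Igfbp3, Esm1, Angpt2, Trp53i11, Vwa1, Fscn1, Adamts4 and Apln. They carried 11 of 13 sprouting and tip-cell markers and 1 of 8 Car4-capillary markers, and are called the Igfbp3-led cells here. No low-burden cluster carried more than 2 of the 13. Their sum over the rule's 5 genes was low, with a median of 21.2 UMIs per 10000 against 98.7 in the other 66 high-burden members, and 10 of the 25 had under 20. All 25 were above the identity level, with a median of 68.5 UMIs per 10000. High-burden clusters 1 and 2 had medians of 124 and 180. The low-burden clusters led by T-cell, macrophage, epithelial and mural genes had 66.1, 38.1, 98.5 and 148. The identity level alone thus does not set the Igfbp3-led cells apart from members with RNA of other cells. The Igfbp3-led cells were also deep, with a median of 12353 UMIs against 7130, and so gave 50.2% of the UMIs of the high-burden members. A sum over all members at high burden is thus an average of these cells and of the rest at about equal weight, and values of both are given for the main genes and lists below. The Igfbp3-led cells are a cluster that the sprouting genes themselves lead, and leaving them out takes cells from the high-burden side alone, so a lower ratio of those genes without them follows from how the cells were found.

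**Figure D2:**
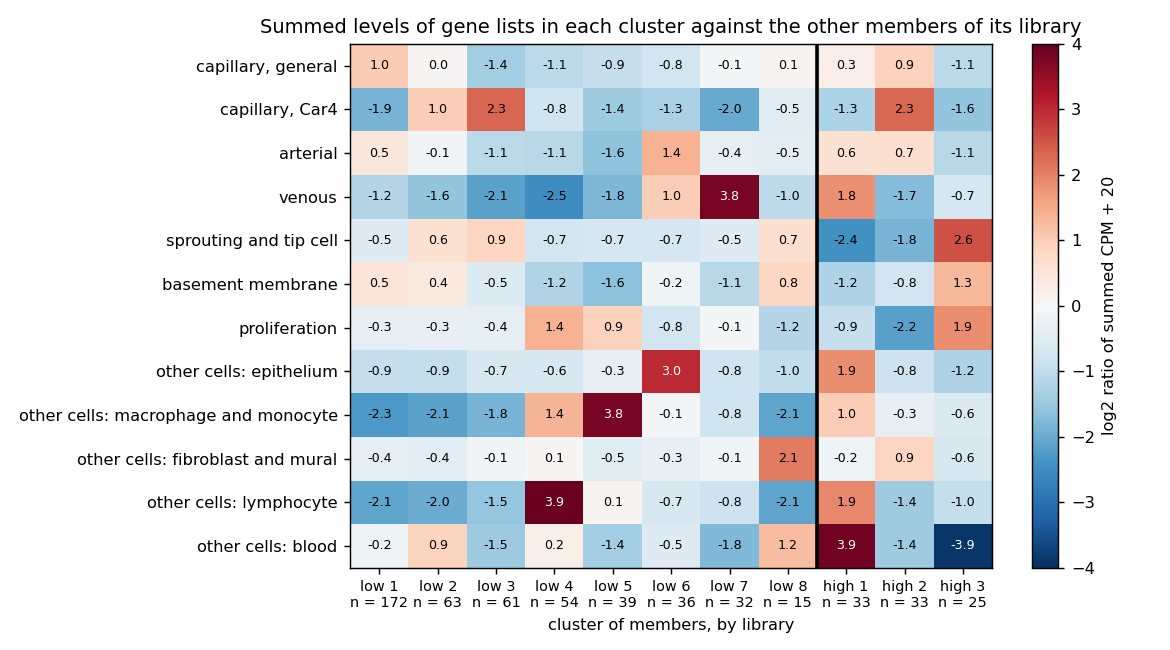
Columns are the clusters of members in each library with their number of cells, rows are gene lists, and each cell gives the log2 ratio of the list's summed CPM in the cluster over that in the other members of the same library, after 20 CPM were added to both. Venous genes stand out in low-burden cluster 7, Car4-capillary genes in low-burden cluster 3 and high-burden cluster 2, and sprouting genes in high-burden cluster 3, while low-burden clusters 4, 5, 6 and 8 are set apart by genes of other cells.

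Summed counts of all members were compared between the libraries for 7067 genes with at least 50 UMIs, detected in at least 10% of members of either library, outside the genes of the rule. A gene was called higher or lower at high burden when the ratio was at least 2-fold (a log2 ratio of 1) and its counting interval excluded 0. At high burden 303 genes (4.29%) were called higher and 429 (6.07%) lower. With median-of-ratios scaling, which shifted every ratio by 0.12, the split was 389 higher and 314 lower. Of the 7067 genes, 1301 passed the filter only through the high-burden library, whose members were deeper, and 68 only through the low-burden library. Among the 303, 175 were detected in under 10% of low-burden members, and passed only through the group in which they were high. The same held for 67 of the 429 in the other direction. The median log2 ratio was -0.12 over all 7067 genes and -0.32 over the 598 genes enriched in members, and the list medians below are to be read against both. These 598 were at least 3-fold above all other kept cells of the library where they were higher, and 62 were called higher and 87 lower. Of the 62, 7 were also enriched at low burden, and of the 87, 77 were also enriched at high burden. Without the Igfbp3-led cells, 4 of those 62 and 5 of those 87 were still called.

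The summed level of 13 sprouting and tip-cell genes was 723 and 2049 CPM at low and high burden. Of these, 10 passed the filter, 6 were called higher and 0 lower, with a median log2 ratio of 1.67, but 5 of the 6, all but Apln, passed only through the high-burden library. The summed level was 3509 CPM in the Igfbp3-led cells and 578 CPM in the other 66, with a median log2 ratio of -0.33 to all low-burden members, the 83 with sprouting UMIs described next included. After thinning to 2000 UMIs, at least 3 UMIs of the list were found in 83 of 472 low-burden members (17.6%, 14.3 to 21.3) and 30 of 91 high-burden members (33.0%, 23.5 to 43.6). Before thinning these shares were 50.2% and 79.1%, and in T and B cells after thinning they were 6.77% and 0%, a count of 0 of 46 with an upper bound of 7.71%. Of the 30 high-burden members, 22 were Igfbp3-led cells.

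Esm1, the secreted proteoglycan endocan and a classical tip-cell gene, had 49 and 327 UMIs, or 20.8 and 311 CPM, at low and high burden, a log2 ratio of 3.90 (3.47 to 4.37). Of the high-burden UMIs, 98.8% came from the Igfbp3-led cells, which stood at 611 CPM while the other 66 members stood at 7.63 CPM. Esm1 was thus high in a small set of cells, and in the rest the ratio to low burden was -1.44 with an interval that included 0. T and B cells were at 0 and 6.02 CPM.

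Apln, the ligand of the apelin receptor, is made both by tip cells and by Car4-positive capillary cells. It had 87.7 and 344 CPM (log2 ratio 1.97, 1.72 to 2.22), with 626 CPM in the Igfbp3-led cells and 59.1 CPM in the others. Angpt2, a secreted antagonist of the Tie2 receptor Tek, had 19.9 and 169 CPM (3.09, 2.62 to 3.58), and 3.81 CPM without the Igfbp3-led cells. Tek itself was at 347 CPM at low burden, 30.3 CPM in the Igfbp3-led cells and 374 CPM in the other high-burden members, so that ligand and receptor genes were at opposite levels in these cells. Unc5b, a netrin receptor gene, was also called higher (1.38, 0.81 to 1.95). Cd34, Pdgfb, Mcam and Cxcr4 were not called, with log2 ratios of 0.80, 0.26, 0.27 and 0.64. Pgf (placental growth factor) and Adm (adrenomedullin) did not pass the filter, with 7 and 6 UMIs at low and 56 and 41 UMIs at high burden.

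Among the genes enriched in members, the highest ratios were of genes found almost only in the Igfbp3-led cells. Most were enriched at high burden alone: at low burden Igfbp3 was at 11.4 CPM in members and 86.2 CPM in other kept cells, Fscn1 at 21.2 and 37.7, Mmp14 at 8.05 and 20.2, and Ildr2 at 0 and 10.3. Esm1 was at 20.8 and 6.23 CPM. Igfbp3, a secreted binding protein of insulin-like growth factors, had 27 UMIs in 21 low-burden members and 443 UMIs in 18 high-burden members, or 11.4 and 421 CPM (log2 ratio 5.20, 4.64 to 5.82). The Igfbp3-led cells held 99.8% of the high-burden UMIs, and the member with the most held 17.6%. The highest ratio among the enriched genes was of Adamts4, which encodes a secreted protease that cleaves proteoglycans. It had 0 and 93 UMIs, at least 69.5-fold higher against a floor of 3 counts over the group. Ildr2 had 0 and 73 UMIs, at least 54.6-fold higher. Vwa1, an extracellular matrix protein gene, had 7.62 and 142 CPM, and Mal had 3.39 and 64.6 CPM. Trp53i11, Fscn1 (fascin, which bundles actin in cell protrusions), Mmp14 (a membrane-bound matrix metalloproteinase) and Tnfaip8l1 followed, with log2 ratios of 3.50, 3.49, 3.46 and 3.32. In the other 66 high-burden members these genes, from Igfbp3 to Tnfaip8l1, had between 1.91 and 24.8 CPM, near the low-burden range of 0 to 22.0 CPM.

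These cells were few, so the number of cells behind each value is given at equal depth. At 2000 UMIs per cell, Esm1 was detected in 10 of 472 low-burden members, 10 of 25 Igfbp3-led cells and 1 of the other 66 high-burden members. Igfbp3 was detected in 10, 10 and 1, Angpt2 in 11, 11 and 0, Vwa1 in 8, 14 and 0, and Fscn1 in 14, 18 and 3. T and B cells with a UMI of Esm1, Angpt2 or Vwa1 were 0 of 133 and 0 of 46. Those with Igfbp3 were 4 of 133 and 0 of 46, and those with Fscn1 0 of 133 and 1 of 46. Detection of Igfbp3 was thus not particular to members at low burden. Low-burden members with a UMI of Esm1, Angpt2 or Vwa1 existed, at 2.12% of members for Esm1 against 12.1% at high burden.

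The promoters of Esm1 and Igfbp3, higher at high burden, and of Car4, lower, are shown because their levels set the Igfbp3-led cells apart from the capillary cells. The windows run from 250 bases before to 50 bases after the start of the gene (RefSeq, GRCm38.p6) and are written 5′ to 3′ on the gene's strand. Capitals mark CCGGAA, a core letter run of ETS factor sites, and ACGTG, a core of hypoxia response elements, on either strand. They are at chr13:113209409-113209708 (+ strand), chr11:7213874-7214173 (- strand) and chr11:84957504-84957803 (+ strand).
Esm1: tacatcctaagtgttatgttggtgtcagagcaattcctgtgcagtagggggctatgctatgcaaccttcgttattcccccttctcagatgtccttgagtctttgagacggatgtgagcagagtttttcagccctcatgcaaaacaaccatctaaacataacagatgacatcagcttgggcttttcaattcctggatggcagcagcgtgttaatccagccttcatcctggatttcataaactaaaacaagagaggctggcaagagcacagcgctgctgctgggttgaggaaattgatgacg
Igfbp3: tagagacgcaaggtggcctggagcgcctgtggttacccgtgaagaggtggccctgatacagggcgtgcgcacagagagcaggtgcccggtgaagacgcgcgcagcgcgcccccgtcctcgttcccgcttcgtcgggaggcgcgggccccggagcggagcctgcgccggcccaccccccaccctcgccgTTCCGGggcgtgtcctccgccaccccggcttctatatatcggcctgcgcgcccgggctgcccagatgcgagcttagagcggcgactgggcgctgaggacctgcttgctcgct
Car4: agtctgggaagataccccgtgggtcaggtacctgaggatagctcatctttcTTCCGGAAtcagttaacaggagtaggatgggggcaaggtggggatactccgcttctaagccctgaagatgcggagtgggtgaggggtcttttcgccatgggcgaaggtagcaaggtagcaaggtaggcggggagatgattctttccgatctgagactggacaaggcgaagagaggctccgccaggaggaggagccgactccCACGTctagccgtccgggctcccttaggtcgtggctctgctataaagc
The window of Car4 held 2 overlapping matches of CCGGAA, counted on opposite strands, and 1 of ACGTG. That of Igfbp3 held 1 match of CCGGAA, and that of Esm1 held 0 of either. CCGGAA was found in 14.9% and ACGTG in 19.6% of all 32851 promoter windows of this length. A match is a run of letters and not a binding site. In GENCODE M21 (GRCm38), Esm1 lies on chromosome 13 from 113209659 to 113218098 on the + strand, Igfbp3 on chromosome 11 from 7206086 to 7213923 on the - strand, and Car4 on chromosome 11 from 84957786 to 84966044 on the + strand.

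**Figure D3:**
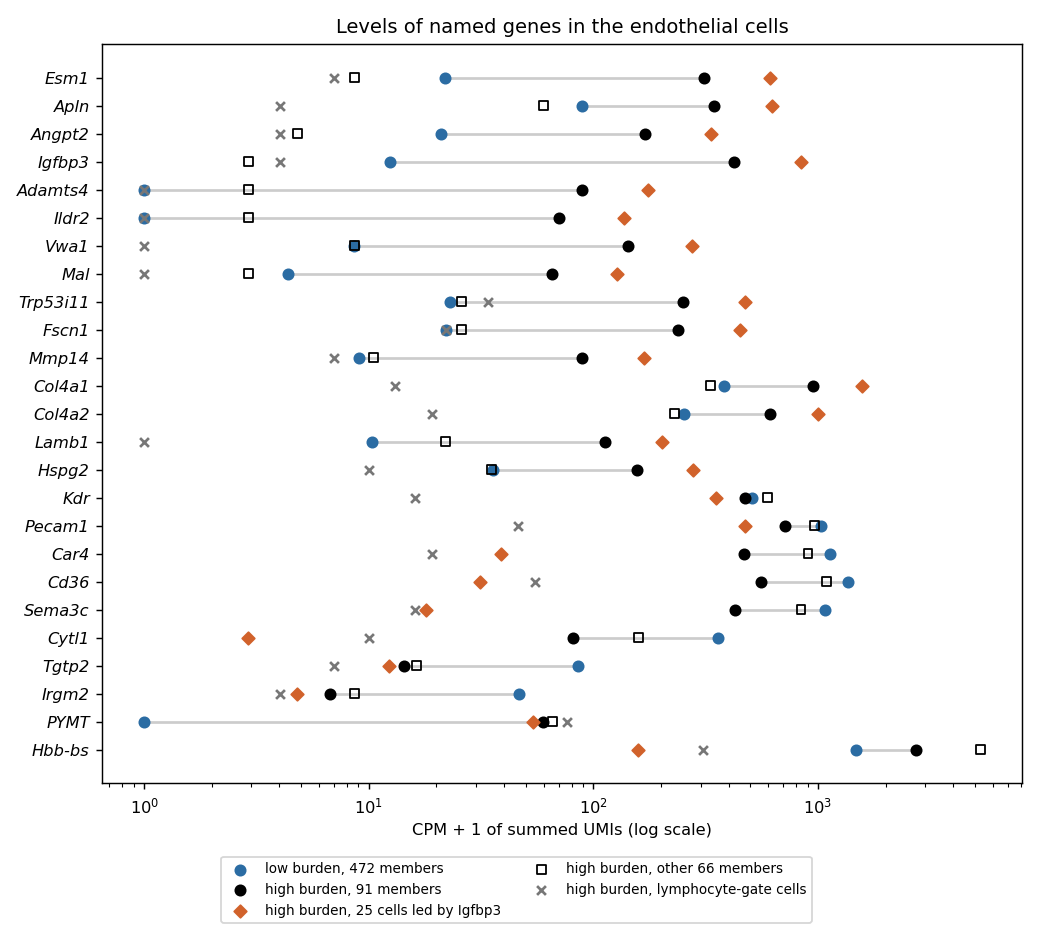
Rows are genes and the x axis is the level as CPM + 1 of summed UMIs on a log scale, for members of both libraries, the 25 Igfbp3-led cells, the other 66 high-burden members and the T and B cells (lymphocyte gate) at high burden; grey lines join the low-burden and the high-burden members. From Esm1 to Hspg2 the orange diamonds lie far above the open squares, from Car4 to Cytl1 below them, and PYMT lies between 53.0 and 75.2 CPM in every high-burden group.

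Basement membrane genes had a summed level of 2825 and 5771 CPM. Of 13 genes, 12 passed the filter, 6 were called higher and 0 lower, with a median log2 ratio of 1.13, and 2 of the 6, Lamb1 and Lama4, passed only through the high-burden library. Col4a1 and Col4a2, the chains of the most abundant type IV collagen, had 380 and 953 CPM (log2 ratio 1.33, 1.19 to 1.46) and 253 and 614 CPM (1.28, 1.11 to 1.44). The laminin genes Lamb1, Lamc1 and Lama4 had log2 ratios of 3.58, 1.87 and 2.36, and Hspg2 (perlecan) had 2.17. Lamb2, the alternative beta chain, was at -0.70, and Lama5 at -0.06. Lamb1 is also on the sprouting list. Without the Igfbp3-led cells the median was -0.05, with Col4a1 at 332 CPM against 1569 CPM in the Igfbp3-led cells. Sparc, which binds collagen, was not called (0.87, 0.81 to 0.93), and it was the most abundant of these genes, at 1882 and 3438 CPM.

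Genes of settled capillaries were lower in the sums at high burden. Of 8 Car4-capillary genes, 3 were called lower and 1, Apln, higher, with a median log2 ratio of -0.82. Car4, the membrane-bound carbonic anhydrase, had 1127 and 468 CPM (-1.27, -1.41 to -1.13). The Igfbp3-led cells were at 37.8 CPM and the others at 902 CPM, against 54.5 and 18.1 CPM in T and B cells. The level was thus near that of T and B cells in the Igfbp3-led cells, and a little under the low-burden level in the other members (log2 ratio -0.32). Ednrb, an endothelin receptor gene, and Fibin were also called lower (-1.25 and -1.39). Of 8 general capillary genes, 2 were called lower, Sema3c (-1.33) and Lpl (-1.65), and 0 higher, with a median of -0.57. Plvap, the diaphragm protein of fenestrae, was at -0.49 and Cd93 at 0.54. Without the Igfbp3-led cells the Car4-capillary median was -0.35 and the general capillary median -0.03, with 0 calls in either list. With each cell weighted equally, 0 Car4-capillary genes were called lower (median -0.42), and 1 general capillary gene was (median -0.17). After thinning, 1 and 0 were called lower (medians -0.34 and -0.29).

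The genes of lipid uptake went in opposite directions. Cd36, a fatty acid translocase, had 1358 and 559 CPM (log2 ratio -1.28, -1.41 to -1.15), and Lpl was lower as above. Fabp5, a fatty acid binding protein gene, was called higher, at 138 and 440 CPM (1.67, 1.46 to 1.88). In the Igfbp3-led cells Cd36 was at 30.3 CPM and Fabp5 at 717 CPM. Of the 6 genes past the filter, 2 were called lower and 1 higher.

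Flow-responsive genes had a median log2 ratio of -0.71, with 3 of 9 called lower and 0 higher. Klf2, the best known shear-stress factor, had 2789 and 1476 CPM (-0.92, -0.999 to -0.84) and was not called. Thbd (thrombomodulin, an anticoagulant receptor), S1pr1 (the receptor of sphingosine phosphate) and Cav2 (caveolin) were called, with -1.06, -1.02 and -1.46. Only 1 of the 9 was still called with median-of-ratios scaling, equal weights, thinning or a cut of 20 in the rule. The same held with no clause on Inmt and with the deepest members left out, and 0 were called without the Igfbp3-led cells. Without members holding RNA of other cells 4 of the 9 were called lower (median -0.87), and without members under the identity level 3 were (-0.77). In the Igfbp3-led cells Klf2 was at 524 CPM and Klf4 at 112 CPM, while the other members were at 2435 and 990 CPM, near or above the low-burden levels of 2789 and 837 CPM. Edn1, which encodes the vasoconstrictor endothelin, was called lower (-1.17, -1.40 to -0.94), at 106 CPM in the Igfbp3-led cells and 252 CPM in the others. Procr, the receptor of protein C, was called higher (2.21, 1.69 to 2.75). Of the 16 genes of haemostasis and vascular tone past the filter, 3 were called lower and 1 higher.

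The receptors of vascular endothelial growth factor differed little between the sums. Kdr was at 510 and 472 CPM (log2 ratio -0.11, -0.27 to 0.04) and Flt1 at 436 and 414 CPM. Of 7 receptor genes, 1 was called higher, the co-receptor Nrp2 (1.11, 0.55 to 1.67), and 0 lower. In the Igfbp3-led cells Kdr was at 350 CPM, against 595 CPM in the other members and 15.0 CPM in T and B cells. The summed receptor list was at 1198 and 2698 CPM in these cells and the others, and the general capillary list at 2301 and 4875 CPM, against 75.2 CPM of the latter in T and B cells. In the BMP and TGF-beta pathway, which keeps vessels quiescent, 2 of 12 genes were called lower, Id2 and Tgfbr3 (-1.25 and -1.20), and 1 higher, the signal transducer Smad1 (1.60, 1.20 to 2.01). The median of these 12 was -0.61. The receptor Acvrl1 was at 1021 and 577 CPM, and at 140 CPM in the Igfbp3-led cells. In the Notch list 1 of 8 was called, the ligand Dll1 (-1.46), and the tip-cell ligand Dll4 was at 0.62 (0.26 to 0.97). Of 9 junction genes, the gap junction gene Gja1 was called higher (3.35, 2.52 to 4.26) and the tight junction gene Ocln lower (-1.46, -2.24 to -0.75).

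**Figure D4:**
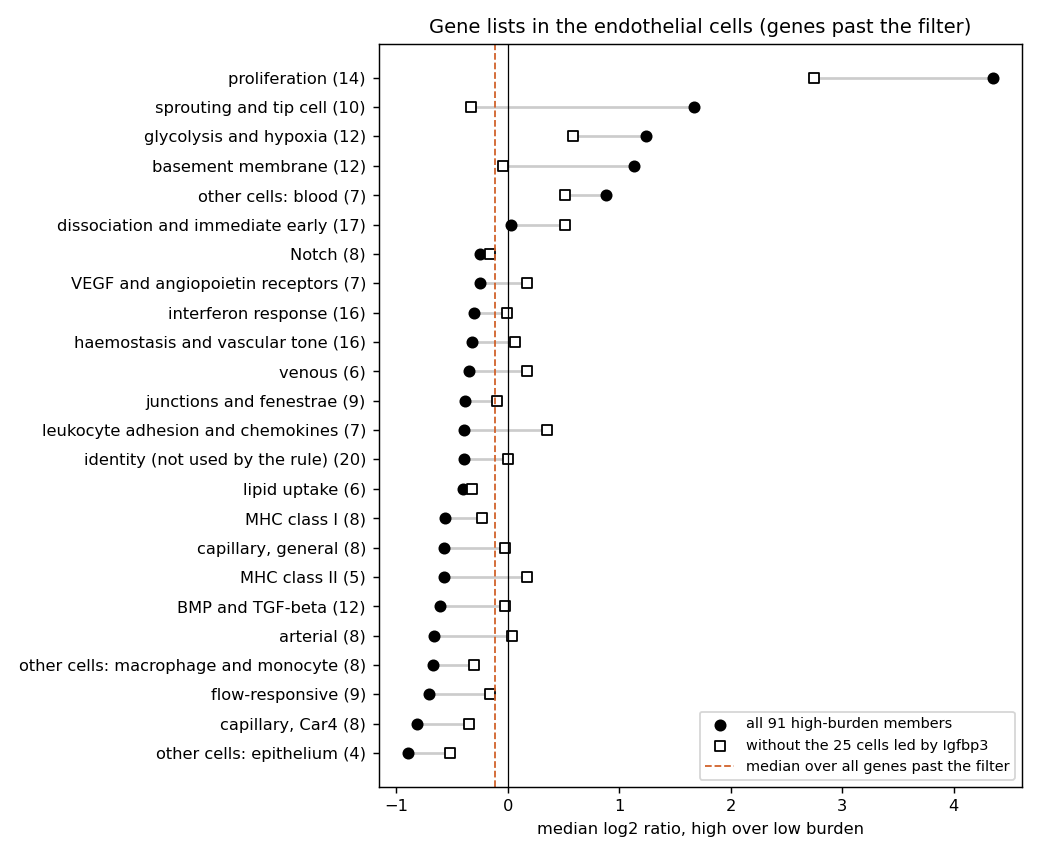
For each gene list the x axis gives the median log2 ratio of high over low burden over its genes past the filter (number in brackets), with filled circles for all 91 high-burden members and open squares without the 25 Igfbp3-led cells. The medians of the sprouting list (1.67) and the basement membrane list (1.13) are -0.33 and -0.05 over the same genes without these cells, and that of the proliferation list (4.35) is 2.75.

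Genes of glycolysis and hypoxia had a median log2 ratio of 1.24, with 7 of 12 called higher and 2 lower. The glycolytic enzyme genes Gapdh (317 and 1241 CPM, log2 ratio 1.97), Pkm (236 and 872 CPM, 1.88) and Ldha (256 and 632 CPM, 1.30) were called higher. Ankrd37, a hypoxia-inducible gene, was also called higher (2.32, 1.88 to 2.77). Vegfa and Hilpda, induced by hypoxia too, were called lower, at -1.14 and -1.33. In the other 66 members Gapdh was at 622 CPM (log2 ratio 0.97 to low burden), Pkm at 473 CPM (1.0006) and Ldha at 395 CPM (0.62), and 2 of the 12 genes were called higher (median 0.59). In T and B cells Gapdh was at 711 and 1203 CPM and Pkm at 292 and 677 CPM, and all other kept cells, the carcinoma cells included, were at 2312 CPM of Gapdh at high burden. The part of free RNA from those cells in this difference was not tested.

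The summed level of 20 proliferation genes was 126 CPM at low burden, 1321 CPM at high burden and 557 CPM in the other 66 high-burden members. Of these, 14 passed the filter and 13 were called higher (median log2 ratio 4.35), but all 13 passed only through the high-burden library. The number of calls is thus no separate support. Over all genes, 1301 passed only that way, and 175 of them were called higher. Without the Igfbp3-led cells 3 genes of the proliferation list passed and 2 were called, and after thinning 1 passed and 0 were called. Cdk1, the kinase that drives mitosis, had 3 and 87 UMIs (6.02, 4.43 to 8.33). Birc5 (survivin) had 7 and 183, and Top2a 15 and 127. At 2000 UMIs per cell, at least 3 UMIs of the list were present in 4 of 472 low-burden members (0.847%, 0.231 to 2.16) and 18 of 91 high-burden members (19.8%, 12.2 to 29.4). Before thinning these shares were 1.91% and 65.9%. Of the 18 members, 12 were among the 25 Igfbp3-led cells and 6 among the other 66. Of the 30 high-burden members with sprouting UMIs, 13 also met the proliferation cut. T and B cells had 9.77% (5.31 to 16.1) and 37.0% (23.2 to 52.5), so the share was higher at high burden in that gate too. All other kept cells had 16.02 and 441 CPM of Birc5, and the part of free RNA in the members' counts was not tested. The 10 highest ratios over all genes held 5 genes of cell division, Cdk1, Birc5, Cdca8, Fam64a and Ccna2. The highest of all was AA467197, with 2 UMIs at low burden and 150 at high burden (7.39, 5.52 to 10.5), of which 93.3% came from the Igfbp3-led cells.

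**Figure D5:**
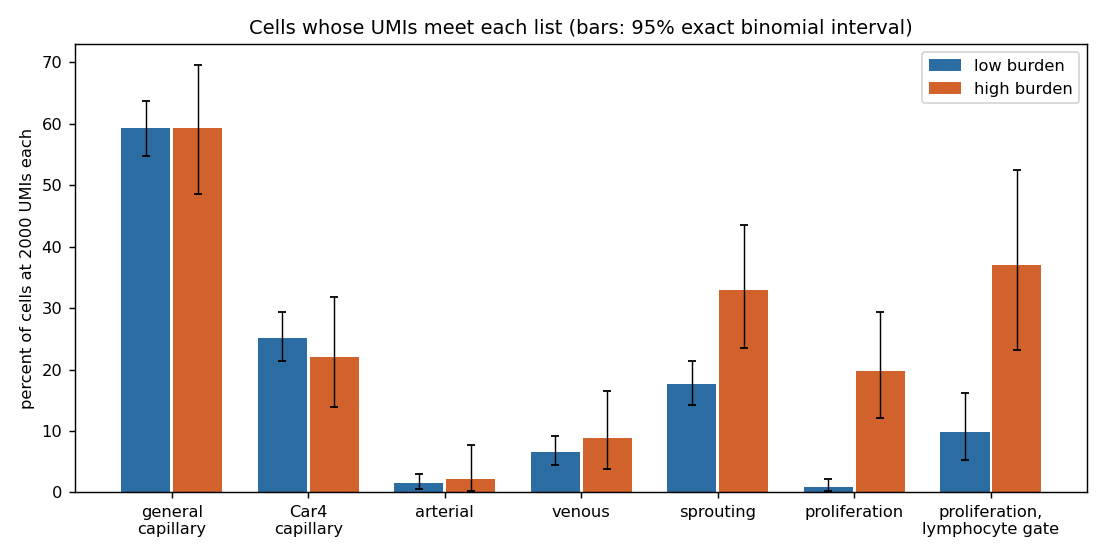
Bars give the percent of cells at 2000 UMIs each in which a vessel-type list led, or in which at least 3 UMIs of the sprouting or proliferation list were found, for low (blue) and high (orange) burden; error bars are 95% exact binomial intervals. The vessel-type bars overlap between libraries, while the proliferation bars of members (0.847% and 19.8%) do not.

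Interferon response genes were not shifted as a group. Of 16 genes past the filter, 1 was called lower, Irgm1 (log2 ratio -1.14, -1.78 to -0.54), and 0 higher, with a median of -0.31. The summed list was at 9255 CPM at low burden, 5570 CPM in the Igfbp3-led cells and 10189 CPM in the other high-burden members. Ifitm3, an antiviral membrane protein gene, had 2760 and 2764 CPM (0.0021, -0.06 to 0.07) and Ly6a 3335 and 2504 CPM. Yet the lowest ratios among the enriched genes were of Irgm2 (45.7 and 5.70 CPM, -3.005, -4.48 to -1.84) and Tgtp2 (84.7 and 13.3 CPM, -2.67, -3.57 to -1.89), interferon-inducible GTPases of the family of Irgm1. Both were low in the Igfbp3-led cells (3.78 and 11.4 CPM) and in the other high-burden members (7.63 and 15.3 CPM) alike. All 8 MHC class I genes passed the filter and 0 were called, with a median of -0.56 and with H2-D1 at 7556 and 4150 CPM. Their sum was 14958 CPM at low burden, 7004 CPM in the Igfbp3-led cells and 12369 CPM in the others. Of 5 MHC class II genes past the filter 0 were called (median -0.57), with sums of 5279, 1052 and 5823 CPM in the same order. Without members under the identity level 3 of the 5 were called lower (median -1.03). Without members holding RNA of other cells 2 were (-0.97), and with each cell weighted equally 0 were (0.05). The low-burden cluster led by T-cell genes was at 17473 CPM of this list, against 3933 CPM in the other low-burden members.

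The other enriched genes with the lowest ratios were Cytl1 (-2.17, a cytokine-like gene), Rtp3 (-2.03), Rhpn2 (-1.82), Tbx3os1 (-1.68), Tmtc2 (-1.64), Cd300lg (-1.61), Prrg1 (-1.60) and Atp2a3 (-1.57, a calcium pump of the endoplasmic reticulum). Most of these calls rested on the sums over all members. Without the Igfbp3-led cells Rtp3, Rhpn2, Tbx3os1, Cd300lg, Prrg1 and Atp2a3 were no longer called (-1.29, -0.94, -0.68, -0.68, -0.74 and -0.76). After thinning these and Tmtc2 were not called either, with Rtp3 at -0.04, Rhpn2 at -0.15 and Tmtc2 at -0.59. Cytl1 was in few cells, with UMIs in 66 low-burden and 11 high-burden members, and 1 member held 50.0% of its high-burden UMIs. Among adhesion genes, Cxcl1, a neutrophil chemokine gene, was called higher (10.6 and 37.0 CPM, 1.81), Vcam1 was at 0.78 (0.41 to 1.15) and Cxcl12 at -0.39. Ackr1, a venular chemokine receptor gene, had 8 and 40 UMIs but was detected in 1.10% of high-burden members and did not pass the filter.

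Genes of other cell types differed in level between the libraries. PYMT, the transgene of the carcinoma cells, had 0 and 62 UMIs (58.9 CPM at high burden), spread over 37 members, against 75.2 CPM in T and B cells and 64.6 CPM in all other kept cells at high burden. The Igfbp3-led cells had 53.0 CPM of PYMT, against 64.8 CPM in the other high-burden members. For the rule's 3 metastatic genes the medians were 0.358 and 0.756 UMIs per 10000. The rule itself held every member under 4 of these genes, so the 2 medians are no separate check. Lcn2 was at 2.96 and 126 CPM in members and at 3.51 and 159 CPM in T and B cells. The lowest ratios over all genes were of the alveolar macrophage genes Ear10, Ear2, Ear1, Chil3, Fabp1 and Il18, of Ccl3 and Itgb7, and of the smooth muscle genes Acta2 and Tpm2. Ear2 was at 386 and 11.4 CPM in members and at 144 and 15.0 CPM in T and B cells, so that it was lower at high burden in both. Among low-burden members, Ear2 stood at 5593 CPM in the cluster led by alveolar macrophage genes and at 61.6 CPM in the others. Whole cells of another type and carried-over RNA were not told apart. The 2 haemoglobin genes Hba-a1 and Hbb-bs were at 6098 and 5299 CPM in the other high-burden members and at 132 and 157 CPM in the Igfbp3-led cells, but 1 member held 82.8% and 83.2% of their high-burden UMIs. The 17 dissociation genes had a median of 0.03 and 0 calls, but their sum was 8172 CPM at low burden, 4631 CPM in the Igfbp3-led cells and 10594 CPM in the other high-burden members, whose median was 0.51. Its part in the differences between these cells was not tested. The fibroblast and mural list was at 873 and 267 summed CPM (711 and 262 in T and B cells), with 3 of 3 genes past the filter called lower, and the epithelial list at 5836 and 3218 CPM, with 1 of 4 called lower. The macrophage list was at 2680 and 1163 CPM with 3 of 8 called lower, the lymphocyte list at 256 and 123 CPM with 1 of 1, the blood list at 3765 and 6908 CPM with 2 of 7 higher and 1 lower (median 0.88), and the metastatic list at 127 and 901 CPM with 3 of 3 higher. Without the members under the identity level, 4 of them at high burden, the blood list turned to a median of -1.73, with 1 higher and 4 lower. The part of such RNA in the other comparisons was not tested. Esm1, Adamts4, Ildr2, Vwa1 and Mal were at 0 to 6.02 CPM in T and B cells of both libraries, and Mmp14 at 1.76 and 6.02 CPM. Others were higher there: Trp53i11 was at 42.2 and 33.1 CPM, Tnfaip8l1 at 21.1 and 18.1, Fscn1 at 3.51 and 21.1, and Igfbp3 at 8.78 and 3.01. In low-burden members Trp53i11 was at 22.0 CPM and Tnfaip8l1 at 5.51 CPM. The identity genes themselves had a median of -0.40, with 4 of 20 called lower, and -0.0022 without the Igfbp3-led cells.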

How the data were processed

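Single-cell RNA was measured with 10x Genomics libraries of dissociated lungs, 1 mouse and 1 library per group. The authors processed reads with Cell Ranger 2.0.2 on mm10 with PYMT added, and the labels also name Seurat. The deposited values are UMI counts per gene and cell, whole numbers with no normalization. Whether they precede the aggregation step named in the methods is not stated in the sources used here. Each library lists 27999 genes, and 27722 matched GENCODE M21 by identifier. No annotation of cells was used; the members and gene lists were chosen with earlier results of these data known. Doublets were kept, and members with RNA of other cells or with the most UMIs were left out as alternatives. Depth is given in the report.

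Counts of members were summed per library and scaled to CPM (UMIs per 1000000). Ratios carry exact conditional binomial, counts exact Poisson and shares Clopper-Pearson intervals (95%, counting error only); a count of 0 was set to 3 counts per group. Named genes were the 10 highest and 10 lowest ratios past the filter, the same among genes at least 3-fold above other kept cells (mitochondrial, ribosomal and predicted genes left out of the latter), and genes of 28 fixed lists. Genes in several lists count under each. The ratio step was tested on simulated counts. Clusters were made per library (log counts per 10000, 1000 variable genes, 10 components, 15 neighbours, Leiden resolution 0.5; scanpy 1.11.5, Python 3.11.15). A marker counted in a cluster when detected in 25% of its cells at 2-fold the other members after 20 CPM were added. This scoring, the level of 40 for the identity genes, the sprouting cut of 3 UMIs and the choice of promoters were set after the data had been seen. Cell names were rebuilt here and may differ from the study.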

Additional observations from a re-analysis of the deposited data

How the results depend on the processing

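The members' share of kept cells (19.1% at low and 3.00% at high burden) became 28.9% and 3.82% with the endothelial cut at 5 UMIs per 10000, and 17.1% at low burden with the cut at 20. It was 31.2% and 8.21% with no clause against fibroblast, macrophage or metastatic genes. It was 24.1% and 5.44% with no clause on Inmt, an alternative chosen after seeing the data. At low burden it was 21.2% after thinning all cells to 2000 UMIs, 13.5% without members that held RNA of other cells and 17.1% without members under 40 UMIs per 10000 of the identity genes (also chosen after seeing the data). At high burden it was 5.79% outside the metastatic gate.

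The number of genes called higher (303) was 84 with members thinned to 2000 UMIs, 86 without the 25 Igfbp3-led cells (chosen after seeing the data), 698 with no filter on low counts and 724 at a log2 ratio of 0.58. The number called lower (429) was 160, 173, 872 and 1160 under the same settings. It was 269 with each cell weighted equally, 280 without the 5% of members with the most UMIs and 217 with no clause on Inmt. Median-of-ratios scaling shifted every ratio by 0.12, to 389 higher and 314 lower. Thinning leaves fewer genes past the filter, 3312 in place of 7067.

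The sprouting list's median of 1.67 was 0.53 after thinning (4 genes left), 1.23 with equal weights, 1.13 without the deepest members and -0.33 without the Igfbp3-led cells. Without these cells Esm1 was at -1.44, Igfbp3 at -2.58, Mal at -0.83 and the basement membrane median, over 9 genes left, at -0.017. The proliferation median was -0.50 after thinning, when 1 gene was left, and the fibroblast and mural median was 0.29 with no clause on Inmt, which admits cells with that gene. Of 380 values of named genes under alternatives, 354 kept their direction and their side of the threshold, 23 were no longer called and 3 changed sign. Of the 38 genes, 18 kept both under every alternative and 20 did not. The blood list, at a median of 0.88, was at -1.73 without members under the identity level.

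The proliferation share at high burden (19.8%) was 29.7% at 3000 UMIs per cell, which left out 139 low-burden members, and 31.9% with 2 UMIs as the least, where the low-burden share was 2.75%. At 3000 UMIs, general capillary genes led in 58.6% of low-burden and 68.1% of high-burden members, against 59.3% and 59.3% in the main setting. Car4-capillary genes led in 26.4% and 15.4%, against 25.2% and 22.0%. These shares stayed within their main intervals, and the intervals of the libraries still overlapped, but the libraries lay further apart. Arterial and venous shares were not compared at 3000 UMIs. No paired analysis was possible because the groups share no replicate. Beyond the shown settings the cause of these shifts was not tested, and 91 cells of 1 mouse limit every value at high burden.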
